A study of Mus musculus with 12 samples.

Results

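Piwil4, Spocd1, Tex15, Tdrd9 and Mael encode 5 proteins of the nuclear arm of piRNA-directed DNA methylation, or of its supply, in fetal male germ cells. They were picked by symbol, and all 5 were found among the 55487 genes of the table. RNA sequencing had been done on 12 libraries of gonocytes, male germ cells that have not yet become spermatogonia. The cells came from the testes of Mvh-Venus mice, whose germ cells carry a fluorescent reporter. There were 4 groups of 3 libraries: E13.5, E16.5, P0 (birth) and P3 (3 days after birth). Titles and source names give WT for every sample, but the genotype tag reads Morc1 (+/-) for the E13.5 and P0 groups and Morc1 (-/-) for the E16.5 and P3 groups. Groups are therefore called by stage, and between consecutive stages, and between P3 and E13.5, the tag and the stage cannot be told apart. Comparing P0 to E13.5, or P3 to E16.5, keeps the tag constant. Nothing in the labels says that libraries came from separate animals, so p-values measure the spread between these samples, which may be technical.

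In fetal male germ cells DNA methylation is erased and then set again, and transposons are transcribed in between. piRNAs are small RNAs cut from transposon transcripts. They guide the PIWI protein PIWIL4 (also called MIWI2) into the nucleus, to new transposon transcripts, and the DNA from which these come is then methylated. SPOCD1 and TEX15 are nuclear partners of PIWIL4 that this methylation needs. TDRD9 is a Tudor domain helicase found with PIWIL4, and MAEL (maelstrom) is needed for piRNA supply and transposon silencing. The methyl groups are added by DNMT3A and DNMT3C with the cofactor DNMT3L while the cells do not divide.

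All 5 genes are protein-coding in the GENCODE annotation of GRCm38, an assembly named in the submitters' processing notes. Piwil4 (ENSMUSG00000036912) lies at chr9:14696230-14740733 (- strand), Spocd1 (ENSMUSG00000028784) at chr4:129929249-129957115 (+ strand) and Tex15 (ENSMUSG00000009628) at chr8:33516738-33585582 (+ strand). Tdrd9 (ENSMUSG00000054003) lies at chr12:111971559-112068854 (+ strand) and Mael (ENSMUSG00000040629) at chr1:166201201-166238747 (- strand). No 50-base word of their transcripts occurred in a transcript of another gene. Piwil4 shared 137 exon bases (2.54% of its exon length) with an antisense gene. Whether reads were counted by strand is not given in the sources used here.

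The sequences before the starts of the genes are shown because the 5 genes moved together between E13.5 and E16.5. RefSeq promoter windows (GRCm38.p6, 250 bases before the start to 50 after it) were at hand for 3 of the 5 genes: Piwil4, Tdrd9 and Mael. A further Piwil4 window inside the gene (chr9:14718338-14718637) held 0 CpG dinucleotides and is left out below. What is printed ends before the most upstream annotated start, 5′ to 3′ on the strand of the gene. Capitals mark motifs that were searched on both strands: the E-box CACGTG, the E2F-type word TTCCCGCC, the CCAAT box CCAAT, the cyclic AMP response element TGACGTCA and the GC box GGGCGG. The E2F-type word and the GC box can overlap.
Piwil4, chr9:14740734-14740922, - strand: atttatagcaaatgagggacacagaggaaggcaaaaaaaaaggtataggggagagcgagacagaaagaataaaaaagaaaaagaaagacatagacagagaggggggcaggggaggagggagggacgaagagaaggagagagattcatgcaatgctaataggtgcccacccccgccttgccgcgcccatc
Tdrd9, chr12:111971309-111971487, + strand: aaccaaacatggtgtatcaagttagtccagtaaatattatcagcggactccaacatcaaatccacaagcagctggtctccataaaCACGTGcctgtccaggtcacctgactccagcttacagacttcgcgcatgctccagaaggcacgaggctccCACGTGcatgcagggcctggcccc
Mael, chr1:166238748-166238994, - strand: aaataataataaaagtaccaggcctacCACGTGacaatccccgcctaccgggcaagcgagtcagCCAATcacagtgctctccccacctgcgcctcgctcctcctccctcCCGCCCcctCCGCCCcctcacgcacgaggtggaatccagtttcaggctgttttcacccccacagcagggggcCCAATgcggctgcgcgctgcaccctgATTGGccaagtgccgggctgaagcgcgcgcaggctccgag
Tdrd9 had 2 E-boxes, starting at bases -165 and -95 from the RefSeq start, and Mael had 1, starting at base -223. Of all 32851 RefSeq windows of this length, 7.15% held an E-box. The Mael window also held 3 CCAAT boxes and 3 GC boxes, of which 1 GC box lies after the printed stretch. The Tdrd9 window held 2 CCAAT boxes, both after the printed stretch. CCAAT boxes occurred in 37.4% of all windows and GC boxes in 35.7%. TTCCCGCC (2.19% of all windows) and TGACGTCA (1.79%) had no match in the 3 windows, and the Piwil4 window matched none of the 5 motifs. CpG dinucleotides numbered 24 in the Mael window, 11 in that of Piwil4 and 10 in that of Tdrd9, beside a median of 7 over all windows. A match describes these letters only.

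Values below are normalized counts, that is reads per gene divided by a size factor for the library. The libraries held 40946616 to 51533747 reads on genes and are named by stage and by the number 1, 3 or 4 of their column. Morc1 had 1697 ± 115 normalized counts (mean ± SD, n = 3 as in all such values) at E13.5, 31378 ± 2641 in the E16.5 group, 7496 ± 214 in the P0 group and 10880.5 ± 276 in the P3 group, so the groups tagged (-/-) were not the lower ones. What a (-/-) allele would do to reads on this gene is not known from the labels. All 8 germ cell markers, among them Ddx4 and Dazl, were above 3 reads in some library of each stage. They summed to 322350 to 337029 normalized counts in the E13.5 libraries, 183300 to 202992 in E16.5, 92055 to 97292 in P0 and 198687 to 216633 in P3. From E13.5 to E16.5 the largest falls were in Dazl (139041 ± 3787 to 35953 ± 3072) and Dppa3 (79747 ± 2546 to 14676.5 ± 719). Dnd1 (34372 ± 2396 to 69582 ± 5403) and Tex101 (1127 ± 51.6 to 15738.5 ± 1560) had higher means in E16.5, and the other markers lower ones. In P0 the sum was lowest, although Dazl (59234 ± 2704) was above its E16.5 mean. Differences were tested with limma over 22384 genes. A gene was called at a Benjamini-Hochberg adjusted p under 0.05, and log2 fold changes are differences of log2(normalized count + 1), where the added 1 lowers the change of low genes. Folds are ratios of stage means and need not equal the log2 value beside them.

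Spocd1, which links PIWIL4 to the methylation machinery, covered the widest range. Libraries 1, 3 and 4 of E13.5 had 21.1, 7.62 and 6.31 normalized counts, from 20, 7 and 6 reads, and those of E16.5 had 25529.8, 26257 and 22267. The P0 libraries had 15212, 14829.5 and 14519 and the P3 libraries 761.7, 678.6 and 881.6. On this scale no stages overlapped, although before scaling the reads of E16.5 and P0 did, as given below. The share of all genes tested whose stages do not overlap was not computed, so this does not set any of these genes apart. In order, E16.5 (24685 ± 2125) was highest, then P0 (14854 ± 347), P3 (774 ± 102) and E13.5 (11.7 ± 8.19). The P3 mean was 3.14% of the E16.5 mean, and the E13.5 mean 0.0473%.

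Piwil4, the nuclear PIWI protein, had 593.2, 455.9 and 492.2 normalized counts in the E13.5 libraries and 32797, 37199.9 and 28776 in those of E16.5. The P0 libraries had 6055, 5623 and 5126 and the P3 libraries 3073, 3068 and 3506. Again no stages overlapped, and the order was the same: E16.5 (32924 ± 4213), P0 (5601 ± 465), P3 (3216 ± 252), E13.5 (514 ± 71.2). At P0 Piwil4 was at 17.0% of its E16.5 mean, whereas the other 4 genes were at 45.7% (Tex15) to 60.2% (Spocd1).

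Tdrd9, the Tudor domain helicase, had 252.3, 232.9 and 239.8 normalized counts in the E13.5 libraries and 20815, 23387 and 19190 in those of E16.5. The P0 libraries had 11985, 11533 and 11466 and the P3 libraries 4275, 4729.6 and 5536. Its stages did not overlap and kept the order of Spocd1 and Piwil4: E16.5 (21131 ± 2116), P0 (11661 ± 282), P3 (4847 ± 638), E13.5 (242 ± 9.84). Before scaling, its reads in E16.5 (21813 to 25152) and P0 (21224 to 23756) overlapped. The E13.5 libraries were closest to each other for Tdrd9, with an SD of 4.07% of the mean, and furthest apart for Spocd1, with 70.2%.

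Tex15, the large nuclear partner of PIWIL4, had another order of stages. Its normalized counts were 1137, 1023 and 1083 in the E13.5 libraries and 14813, 15831 and 15019 in those of E16.5. The P0 libraries had 6999, 7011 and 6862 and the P3 libraries 8394, 8379 and 9733. E16.5 (15221 ± 539) was followed by P3 (8835 ± 778), P0 (6958 ± 82.6) and E13.5 (1081 ± 57), without overlap. The order of P3 and P0 turned under other scalings, as given below.

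Mael was the most counted of the 5 genes at every stage. It had 14585, 14839 and 13698 normalized counts in the E13.5 libraries and 81999.8, 73928 and 72713 in those of E16.5. The P0 libraries had 46492, 45149 and 43293 and the P3 libraries 41251, 41034 and 37373. The order was E16.5 (76214 ± 5048), P0 (44978 ± 1606), P3 (39886 ± 2179) and E13.5 (14374 ± 599). P0 and P3 lay close but did not overlap. Before scaling, the reads of Mael in E16.5 (79507 to 91871) and P0 (83085 to 89697) overlapped.

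**Figure D1:**
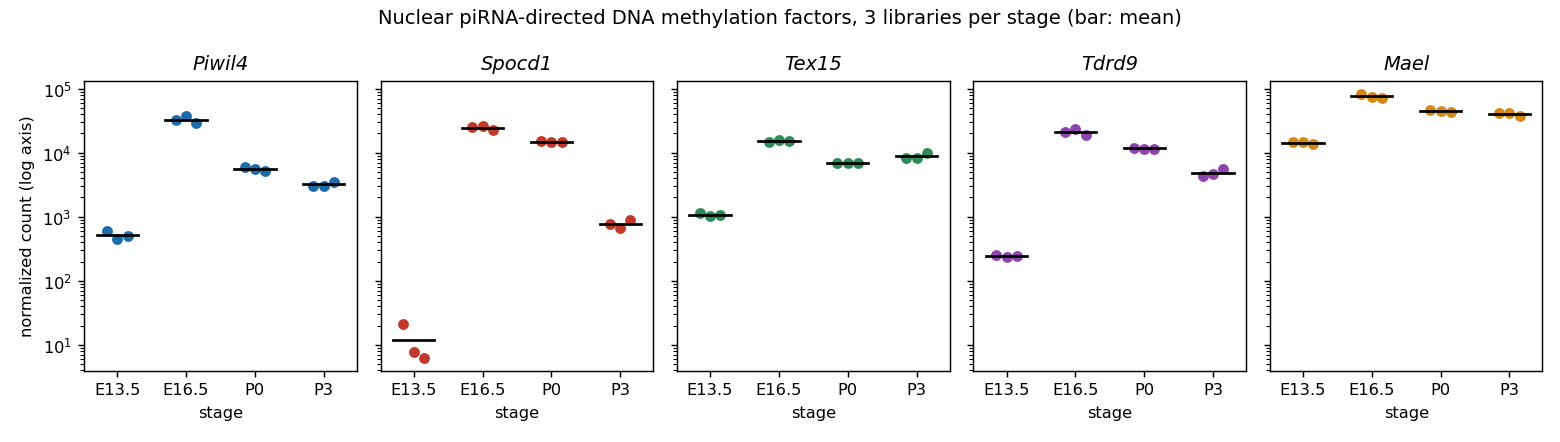
Normalized count (y, log axis) of each gene in the 12 libraries by stage (x), with a point for each library and a bar for the mean of 3. Every gene is highest at E16.5, and the E13.5 means run from 11.7 for Spocd1 to 14374 for Mael.

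Between genes, levels can be compared per kilobase of annotated exon. On that scale of normalized counts per kilobase Mael led throughout, with 8294 ± 346 in E13.5, 43978 ± 2913 in E16.5, 25954 ± 927 in P0 and 23016 ± 1257 in P3. In E13.5 the level of Tex15 was 112 ± 5.93 and that of Piwil4 95.4 ± 13.2, with overlapping libraries, above Tdrd9 (44.6 ± 1.82) and Spocd1 (3.62 ± 2.54). In E16.5 Spocd1 came to 7659 ± 659, Piwil4 to 6114 ± 782, Tdrd9 to 3902 ± 391 and Tex15 to 1582 ± 56.0. Spocd1 thus went from the lowest level of the 5 to the one next to Mael, although its lowest library (6909) all but met the highest of Piwil4 (6908). It kept that place in P0 (4609 ± 108), ahead of Tdrd9 (2154 ± 52.1), Piwil4 (1040.2 ± 86.3) and Tex15 (723 ± 8.59). In P3 it was lowest again (240.1 ± 31.7), under Piwil4 (597 ± 46.7) and under Tdrd9 (895 ± 118) and Tex15 (918 ± 80.8), whose libraries overlapped. As a share of the summed per-kilobase level of the 5 genes, which no scaling changes, Mael made up 97.0% in E13.5, 69.6% in E16.5, 75.3% in P0 and 89.6% in P3 (means of 3 libraries). The share of Spocd1 was 0.0421%, 12.1%, 13.4% and 0.939% over the same stages, and that of Piwil4 1.12%, 9.66%, 3.01% and 2.33%.

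From E13.5 to E16.5 all 5 genes rose, against 45.5% of all genes tested that were called higher and 34.6% called lower. The median log2 fold change of the 5 was 6.0, beside 0.31 over all genes tested. In bulk samples fewer cells of a type and less RNA per cell cannot be told apart. Spocd1 rose by 11.11 (SE 0.266, limma adjusted p 2.53e-15), 2114-fold, ranking 1 of the 22384 genes (rank 33 with a pseudocount of 0.1). This value rests on few E13.5 reads: without library 1 of E13.5 the rise of Spocd1 was 11.60 and the fold 3545. Tdrd9 rose by 6.44 (SE 0.0913, limma adjusted p 1.64e-17), 87.4-fold, and Piwil4 by 6.0 (SE 0.107, limma adjusted p 1.60e-16), 64.1-fold. Tex15 rose by 3.82 (SE 0.0716, limma adjusted p 2.93e-16), 14.1-fold. The smallest rise was that of Mael, 2.41 (SE 0.0694, limma adjusted p 1.65e-14), 5.30-fold. These 5 calls held under all 23 alternatives computed.

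Markers of other testis cells also differed over this interval. Peritubular markers (4 genes) summed to 159 to 209 normalized counts in E13.5 and 929 to 1331 in E16.5, with Tagln at 3 reads or fewer in both. The Sertoli marker Cldn11, the Leydig marker Insl3 and the macrophage marker Adgre1 were at 3 reads or fewer in every E13.5 library. Blood markers (4 genes) summed to 64.1 to 414 and 1749 to 2401. Alas2 made most of that rise (47.0 ± 12.9 and 1476 ± 91.3) and stood at 1346 ± 85.0 in P0. For the globin genes Hbb-bs, Hbb-bt and Hba-a1 the E13.5 and E16.5 libraries overlapped. Macrophage markers (4 genes) summed to 38.1 to 71.8 and 974 to 1156, mostly Cd68. Sertoli markers (6 genes) summed to 893 to 1479.9 and 1237 to 2394, and Leydig markers (5 genes) to 571 to 723 and 608 to 7681, with library 4 of E16.5 the highest. Endothelial markers (3 genes) summed to 4343 to 5085 and 270.1 to 431. That sum followed Pecam1 (4618 ± 400.3 and 282 ± 74.3), while Cdh5 (9.92 ± 6.39 and 29.8 ± 5.18) and Kdr (2.84 ± 3.22 and 38.5 ± 5.40) had higher means in E16.5. The 5 mast cell markers had no read in E13.5 and summed to 23.2 to 37.2 in E16.5. In P0 the sums were 2702 to 4956 for Sertoli, 1078 to 6106 for Leydig, 2835 to 3156 for peritubular, 1559 to 2452 for blood, 92.2 to 215 for macrophage, 583 to 705 for endothelial and 1406 to 3049.8 for mast cell markers. In P3 they were 1051 to 1668 for Sertoli, 179 to 267 for Leydig, 684 to 741 for peritubular, 283 to 521 for blood, 254 to 289.7 for macrophage, 454 to 645 for endothelial and 2.02 to 316 for mast cell markers, with the Leydig marker Insl3 and the macrophage marker Adgre1 at 0. The lower macrophage sum in P0 than in E16.5 followed Cd68 (means 938 in E16.5 and 38.8 in P0). Csf1r also had a lower mean in P0 (57.3 and 39.4), while Adgre1 (47.5 and 72.7) and C1qa (2.59 and 9.75) had higher ones. For Csf1r, Adgre1 and C1qa the E16.5 and P0 libraries overlapped. The part of other testis cells in the results was not tested. Without library 4 of E16.5 the rises from E13.5 were 11.18 for Spocd1, 6.51 for Tdrd9, 6.09 for Piwil4, 3.82 for Tex15 and 2.44 for Mael.

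From E16.5 to P0 all 5 genes fell, against 33.4% of genes called lower and 27.6% called higher. Their median was -0.85, beside -0.01 over all genes tested. Piwil4 fell by 2.55 (SE 0.107, limma adjusted p 7.48e-12), to a level 5.88-fold lower. Tex15 fell by 1.13 (SE 0.0716, limma adjusted p 7.92e-10) and Tdrd9 fell by 0.85 (SE 0.0913, limma adjusted p 4.91e-07). Mael fell by 0.76 (SE 0.0694, limma adjusted p 7.22e-08) and Spocd1 fell by 0.73 (SE 0.266, limma adjusted p 0.0259). These 4 levels were 2.19-fold, 1.81-fold, 1.69-fold and 1.66-fold lower, in that order.

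The smaller of these falls depended on how libraries were scaled, and the call of Spocd1 also on the pseudocount, the filter and the libraries in the fit. Before scaling, Spocd1 had 26754, 28238 and 28134 reads in the E16.5 libraries and 29135, 27290 and 30081 in those of P0, which overlap. With equal library totals the log2 fold change was -0.07 (adjusted p 0.831) for Spocd1, -0.10 (adjusted p 0.104) for Mael, -0.19 (adjusted p 0.0686) for Tdrd9 and -0.47 (adjusted p 3.38e-05) for Tex15. Median-of-ratios factors gave -0.50 for Mael. Spocd1 also lost its call with median-of-ratios factors (-0.47, adjusted p 0.124), TMM factors (-0.61, adjusted p 0.0554), a pseudocount of 0.1 (-0.73, adjusted p 0.0719) and no filter (-0.73, adjusted p 0.0533). It lost it without library 1 (-0.70, adjusted p 0.0737) or 3 (-0.68, adjusted p 0.0787) of E16.5, and without library 1 (-0.75, adjusted p 0.0533), 3 (-0.73, adjusted p 0.0604) or 4 (-0.71, adjusted p 0.0622) of P0. With only the E16.5 and P0 libraries in the limma fit, the adjusted p of Spocd1 was 1.31e-06, and with edgeR on reads it was 1.05e-06. In the main fit all stages, E13.5 included, share 1 estimate of the spread of a gene. The SD of Spocd1 was 70.2% of its mean in E13.5, 8.61% in E16.5 and 2.34% in P0. Equal totals shifted the median of all genes by 0.69. Relative to that median the changes over 5 scalings were -2.57 to -2.54 for Piwil4, -0.75 to -0.72 for Spocd1, -1.15 to -1.12 for Tex15, -0.87 to -0.84 for Tdrd9 and -0.78 to -0.75 for Mael. A scaling moves all genes of a library by the same factor. These narrow ranges therefore follow from the subtraction and do not test the calls.

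From P0 to P3, 4 of the 5 genes fell, against 36.4% of genes called lower, and Tex15 rose, against 40.1% called higher. The median was -0.80, beside 0.05 over all genes tested. Spocd1 fell by 4.27 (SE 0.266, limma adjusted p 2.85e-10), to a level 19.2-fold lower. Tdrd9 fell by 1.27 (SE 0.0913, limma adjusted p 1.65e-09) and Piwil4 fell by 0.80 (SE 0.107, limma adjusted p 3.88e-06), 2.41-fold and 1.74-fold. Mael fell by 0.17 (SE 0.0694, limma adjusted p 0.0313), and Tex15 rose by 0.34 (SE 0.0716, limma adjusted p 0.000393).

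The falls of Spocd1, Tdrd9 and Piwil4 in P3 were called under all 23 alternatives. Equal totals made them larger for Piwil4 (-1.64) and Tdrd9 (-2.12), and median-of-ratios factors for Piwil4 (-1.24). The value of Tex15 turned to -0.10 (adjusted p 0.210) with median-of-ratios factors and to -0.50 (adjusted p 1.03e-05) with equal totals, and was 0.17 (adjusted p 0.0315) with TMM factors. These scalings moved the median of all genes by -0.47, -0.91 and -0.18. Relative to that median Tex15 was 0.29 to 0.36 over 5 scalings, and Mael -0.22 to -0.16, narrow ranges that again follow from the subtraction. Mael lost its call with poscounts factors (-0.15, adjusted p 0.0634) and without library 1 (-0.15, adjusted p 0.0920) or 3 (-0.17, adjusted p 0.0729) of P0 or library 4 of P3 (-0.13, adjusted p 0.120). TMM factors gave -0.35 for it, median-of-ratios factors -0.61 and equal totals -1.02.

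Comparisons over 2 steps share libraries with those above and are not independent of them. P0 and E13.5 both carry the tag Morc1 (+/-), and all 5 genes were higher in P0 (background 45.7% higher, 40.5% lower). The log2 fold changes were 10.38 for Spocd1, 5.59 for Tdrd9, 3.45 for Piwil4, 2.69 for Tex15 and 1.65 for Mael (2.82 with equal totals), with limma adjusted p up to 7.97e-13. P3 and E16.5 both carry Morc1 (-/-), and all 5 were lower in P3 (background 35.2% lower, 34.2% higher). Spocd1 differed by -5.0, Piwil4 by -3.35, Tdrd9 by -2.13, Mael by -0.93 and Tex15 by -0.79, with limma adjusted p up to 4.40e-08. P3 and E13.5 differ in both tag and stage. The 5 genes were also all higher in P3 than in E13.5 (background 39.2% higher, 31.2% lower), by 6.11 for Spocd1, 4.31 for Tdrd9, 3.03 for Tex15, 2.65 for Piwil4 and 1.47 for Mael, with limma adjusted p up to 1.04e-11.

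**Figure D2:**
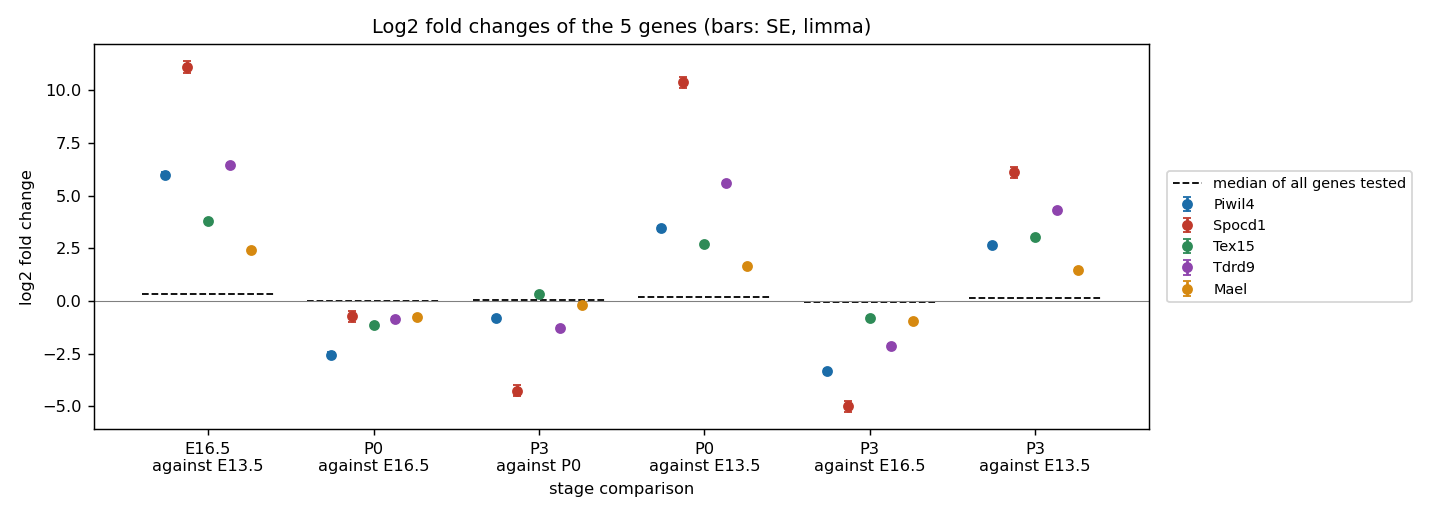
Log2 fold change (y) of the 5 genes in the 6 comparisons of stages (x), with limma's SE as bars and a dashed line at the median of all genes tested. Within E16.5 against E13.5 Spocd1 is the highest of the 5 (11.11), within P0 against E16.5 Piwil4 is the lowest (-2.55), and within P3 against P0 Spocd1 is the lowest (-4.27).

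Read ratios between genes of the same library need no scaling. Each was compared between stages with a 2-sided exact permutation test of log2 ratios, for which 0.10 is the smallest p that 3 libraries against 3 allow, so that none could pass 0.05. Over 10 pairs and 6 comparisons (60 tests) the smallest Benjamini-Hochberg adjusted exact p was 0.105. Per read of Spocd1, Piwil4 had 28.1, 59.9 and 78 reads in the E13.5 libraries and 1.28, 1.42 and 1.29 in those of E16.5. The ratio was 0.398, 0.379 and 0.353 in P0 and 4.03, 4.52 and 3.98 in P3, with no overlap between stages. Piwil4 had more reads than Spocd1 at every stage except P0. The log2 ratio differed by -1.82 between P0 and E16.5 (SE 0.0679, exact p 0.10) and by 3.47 between P3 and P0 (SE 0.0771, exact p 0.10). From E16.5 to P0 the ratio of Piwil4 to Mael differed by -1.79 (SE 0.120, exact p 0.10), to Tdrd9 by -1.70 (SE 0.0586, exact p 0.10) and to Tex15 by -1.42 (SE 0.107, exact p 0.10).

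Ratios among Spocd1, Tdrd9 and Mael differed less between E16.5 and P0. Spocd1 had 0.311, 0.355 and 0.306 reads per read of Mael in the E16.5 libraries and 0.327, 0.328 and 0.335 in those of P0, with overlap (log2 difference 0.03, SE 0.0686, exact p 0.80). The ratio of Tdrd9 to Mael also overlapped (-0.09, SE 0.0991, exact p 0.70), and that of Spocd1 to Tdrd9 did not (0.12, SE 0.0379, exact p 0.10). In P3 Spocd1 had 0.0185, 0.0165 and 0.0236 reads per read of Mael, a difference from P0 of -4.10 (SE 0.152, exact p 0.10), and the ratio of Tdrd9 to Mael differed by -1.10 (SE 0.154, exact p 0.10). Tex15 moved the other way, by 0.52 against Mael (SE 0.120, exact p 0.10) and by 1.62 against Tdrd9 (SE 0.0540, exact p 0.10). The ratio of Tex15 to Mael in P3 overlapped that in E16.5 (0.15, SE 0.140, exact p 0.60). These 3 overlaps were the only ones among the 60 comparisons of ratios. How often ratios of other gene pairs overlap was not tested, so this count does not set these genes apart. Differences between stages were common: of 22384 genes, 13658 were called for P0 against E16.5, the fewest, and 19280 for P0 against E13.5, the most.

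**Figure D3:**
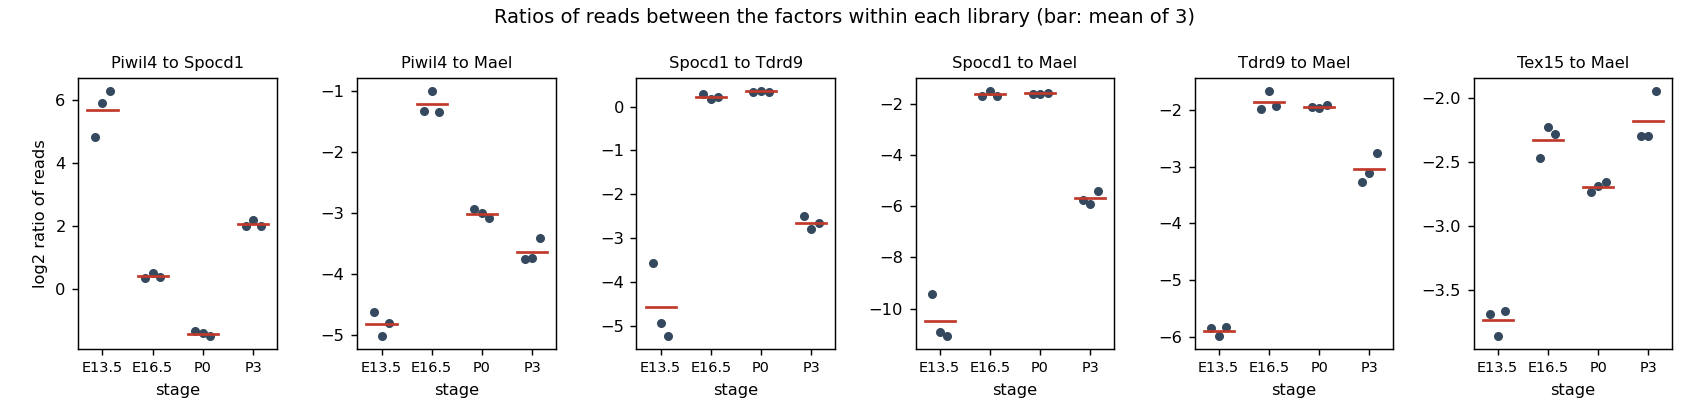
Log2 ratio of reads (y, its own scale in each panel) for 6 pairs of the genes in each library by stage (x), with a bar for the mean of 3 libraries. Piwil4 to Spocd1 is lowest in P0, and Spocd1 to Mael lies level in E16.5 and P0 and differs by -4.10 in P3.

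A list of 10 partner genes of nuclear silencing was read in the same way. From E13.5 to E16.5, 7 rose and 3 fell, with a median of 2.71 (all genes tested: 45.5% higher, 34.6% lower, median 0.31). Dnmt3l, the cofactor of the de novo methyltransferases, rose by 10.12 (SE 0.150, limma adjusted p 1.91e-17), from 17.8 ± 5.31 to 20342 ± 1795 normalized counts. The methyltransferase genes Dnmt3a, Dnmt3c and Dnmt3b rose by 3.33, 5.97 and 0.99. Gtsf1, whose product assists PIWI proteins, rose by 4.21, Morc1 by 4.21, and Piwil2, a cytoplasmic PIWI protein that acts before PIWIL4, by 2.09. The chromatin reader gene Spin1 fell by 0.29, the Tudor domain gene Tdrd12 fell by 0.65 and the histone methyltransferase gene Setdb1 fell by 0.89. With equal totals 1 of the 10 fell. Other genes held 23.6% of the 50-base words of Dnmt3c, 9.81% of those of Dnmt3b and 7.96% of those of Setdb1, so their counts are less certain.

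From E16.5 to P0, 9 of the 10 partners fell, with a median of -0.97 (all genes tested: 27.6% higher, 33.4% lower, median -0.01). Dnmt3b did not pass, at -0.38 (SE 0.166, limma adjusted p 0.0561). From P0 to P3, 6 rose and 3 fell, with a median of 0.56 (all genes tested: 40.1% higher, 36.4% lower, median 0.05). Dnmt3c fell by 3.92, Dnmt3l fell by 3.65 and Dnmt3a fell by 0.54, while Piwil2 did not pass, at -0.04 (SE 0.0944, limma adjusted p 0.729). Dnmt3b rose by 2.28, Tdrd12 by 1.86, Setdb1 by 1.20, Spin1 by 0.81, Gtsf1 by 0.59 and Morc1 by 0.54. With equal totals, 1 partner rose and 5 fell from E16.5 to P0, and 3 rose and 6 fell from P0 to P3. In P3 Dnmt3l stood at 527 ± 32.9 normalized counts and Dnmt3c at 37.2 ± 6.30, and Spocd1 at 774 ± 102.

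**Figure D4:**
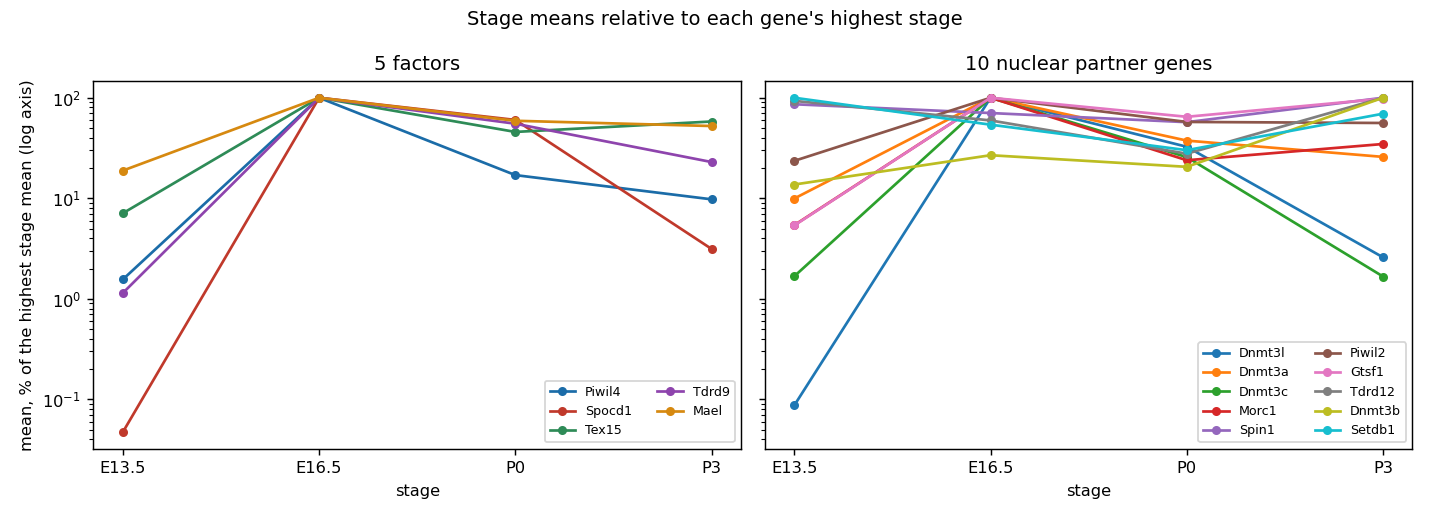
Stage mean as a percentage of the highest stage mean of each gene (y, log axis) by stage (x) for the 5 factors (left) and the 10 partner genes (right). Spocd1 is at 3.14% of its E16.5 mean in P3, and on the right Dnmt3l is at 2.59% and Dnmt3c at 1.67% of theirs, while Dnmt3b is highest in P3.

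A wider list of 20 genes was drawn up for piRNA production and its regulation, and the role of each gene was not tested. From E13.5 to E16.5, 13 rose and 4 fell, with a median of 0.89 (all genes tested: 45.5% higher, 34.6% lower, median 0.31). Henmt1, which methylates piRNA ends, rose by 4.76 (limma adjusted p 3.22e-16) and Piwil1, the PIWI protein of meiotic cells, by 3.22 (1.48e-12). The chaperone gene Hsp90aa1 fell by 1.0 (1.38e-09) and the arginine methyltransferase gene Prmt5 fell by 0.53 (8.07e-06). With median-of-ratios factors 2 of the 20 fell, and with equal totals 1.

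From E16.5 to P0, 17 of the 20 fell and 3 rose, with a median of -1.19 (all genes tested: 27.6% higher, 33.4% lower, median -0.01). Mov10l1, a helicase that starts piRNA processing, fell by 2.27 (limma adjusted p 1.82e-12) and Tdrd5 fell by 2.22 (9.19e-12). Tdrd6 rose by 2.66 (3.06e-05) and Nynrin by 1.65 (0.000545). Both were low in the E16.5 libraries, with 52 to 64 reads for Tdrd6 and 53 to 132 for Nynrin. Nynrin also shared 56.5% of its exon bases with other genes, so its counts are less certain. From P0 to P3, 16 rose and 3 fell, with a median of 0.51 (all genes tested: 40.1% higher, 36.4% lower, median 0.05), where the 5 factors had -0.80 (range -4.27 to 0.34). Asz1, a germ granule protein, rose by 1.60 (4.62e-12) and Mov10l1 by 1.60 (2.60e-11). Nynrin fell by 1.91 (8.52e-05), and Mybl1, a transcription factor of piRNA loci in meiosis, fell by 1.91 (3.73e-06). Median-of-ratios factors gave 9 genes higher and 5 lower in P3, and equal totals 6 and 12.

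**Figure D5:**
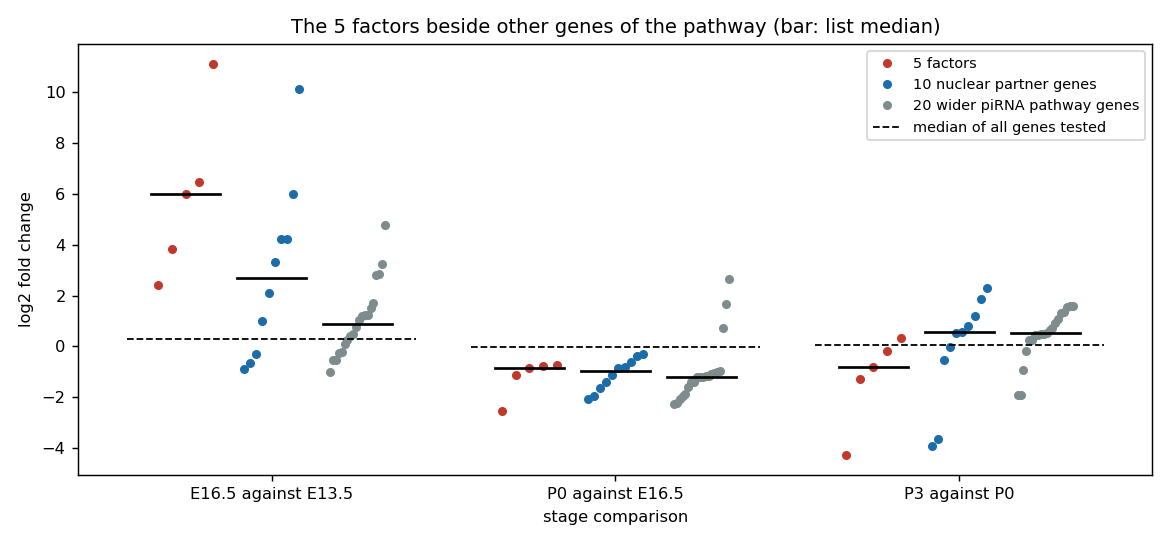
Log2 fold changes (y) of the 5 factors, the 10 partner genes and the 20 wider piRNA pathway genes in 3 comparisons (x), with a bar at the median of each list and a dashed line at the median of all genes tested. At P3 against P0 the bar of the 5 factors lies at -0.80 and the bars of the other lists at 0.56 and 0.51. The lists overlap there: the 5 factors run from -4.27 to 0.34, the partner genes from -3.92 to 2.28 and the wider list from -1.91 to 1.60.

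Across the 12 libraries, log2 levels of the 5 genes correlated with each other at Pearson r of 0.906 (Spocd1 and Tex15) to 0.983 (Spocd1 and Tdrd9). The libraries share 4 stages and a common scaling, so these values only describe. By the same measure, the genes most like each of the 5 were taken from 13657 genes. Piwil4 was most like Dnmt3a (r = 0.998), Otud7a (0.997) and Tcfl5 (0.996). Dnmt3a had 52805 ± 4712 normalized counts in E16.5 and 19793 ± 351 in P0. Among the genes most like Spocd1 were Lrrc27 (0.997) and Dock11 (0.996), and Lrrc27 had 4821 ± 485 in E16.5 and 3698 ± 397 in P0. Tex15 was most like Henmt1 (0.997), Nxf2 (0.997) and Prdm16 (0.996), whose P3 means all lay above their P0 means, as for Prdm16 with 1491 ± 70.2 in P0 and 2154 ± 120.3 in P3. Tdrd9 was most like Cntn6 (0.998), Gaa (0.998) and Trim61 (0.998), of which Cntn6 and Trim61 had no reads in E13.5. Mael was most like Gna13 (0.998), Txndc16 (0.995) and Zcchc12 (0.994).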

How the data were processed

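RNA had been isolated with a kit for small samples and made into libraries with SMART-seq v4 and TruSeq mRNA kits, per the labels' protocols. The submitters' processing notes name bcl2fastq 2.20, cutadapt 1.18, HISAT2 2.1.0, featureCounts 1.5.2 and DESeq2 1.26.0, and the builds mm10 and GRCm38. The deposited signal is featureCounts reads per gene after RLE scaling by the authors, per the name of the table. Median-of-ratios factors computed anew from the reads did not give this scaling back. They moved the median change by 0.27 for P0 against E16.5 and by -0.47 for P3 against P0. Poscounts factors came closer, moving it by -0.03 and 0.03. Which kind of factors the authors used was not tested. Each value was a whole multiple of its column's smallest value above 0 (100% of values, tolerance 0.001), which gave back reads. Symbols were found for 55141 of 55487 identifiers (99.4%). Columns were matched to stages only.

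Genes reaching 10 normalized counts in 3 libraries were tested on log2(normalized count + 1) with limma 3.58.1 in R 4.3.3, all stages in 1 fit (8 residual degrees of freedom), after a check on simulated data. Alternatives were 4 other scalings, pseudocounts of 0.1 and 10, no filter, the 2 stages alone, edgeR 4.0.16, DESeq2 1.42.0, leaving out each library and, added after seeing the data, a block on the column number. Levels per kilobase used merged exons of GENCODE M21. Named were the 5 genes, the partner list, the 2 highest and 2 lowest called genes of the wider list per step, and the 3 most similar profiles among genes with a stage mean of at least 100, without predicted genes. Of these profiles 1 is not reported here. The members and lists were chosen with earlier results of these data known.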

Additional observations from a re-analysis of the deposited data

How the results depend on the processing

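The 30 changes of the 5 genes were recomputed under 23 alternatives. Of 690 values, 672 kept direction and call, 16 kept the direction and lost the call, and 2 reversed. The reversed result was Tex15 from P0 to P3 (0.34 as reported), with median-of-ratios factors (-0.10) and equal totals (-0.50). Calls from E16.5 to P0 were lost for Spocd1 (-0.73 as reported) with TMM (-0.61) and median-of-ratios factors (-0.47), equal totals (-0.0660), a pseudocount of 0.1 (-0.73) and no filter (-0.73). With equal totals they were also lost for Tdrd9 (-0.19) and Mael (-0.10). Mael from P0 to P3 (-0.17 as reported) lost its call with poscounts factors (-0.15). Leaving out 1 library gave -0.80 to -0.68 for Spocd1 from E16.5 to P0 and -0.20 to -0.13 for Mael from P0 to P3. The other lost calls were among these fits, as given above. The cause was not tested.

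Scaling or the filter moved the share of all called genes that were higher. From E13.5 to E16.5 it was 56.8%, and 70.1% with equal totals. From E16.5 to P0 it was 45.2%, against 59.6% (median-of-ratios) or 78.7% (equal totals). From P0 to P3 it was 52.4%, against 38.4% (median-of-ratios), 25.2% (equal totals) or 41.7% (no filter). For P0 over E13.5 it was 53.0%, and 77.2% with equal totals and 63.3% with no filter. For P3 over E13.5 it was 55.7%, and 68.9% with equal totals. The numbers 1, 3 and 4 recur in each stage, but no label ties them to an animal or day. A replicate block on them, added after seeing the data, left every member call unchanged (-0.73, adjusted p 0.0219, for Spocd1 from E16.5 to P0), and called genes went from 13658 to 13529 there. Deviations of same-numbered libraries correlated at -0.04 to 0.04, and 2 of 12 libraries correlated best with their own number. Depth limits Spocd1 in E13.5, with 6 to 20 reads per library.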
